A study of Mus musculus with 9 samples.

Results

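Elastic fibres and the microfibrils that scaffold them were described through 10 genes in 3 tissues of the embryonic mouse knee. The genes were chosen by name: Eln, Fbn1, Fbn2, Mfap2, Mfap4, Mfap5, Fbln1, Fbln2, Fbln5 and Emilin1, out of 19057 gene symbols on the array. Earlier results of these data were known at that choice. Of these 10 genes, 8 were represented by 17 of the 45281 probes. No probe used here was annotated to Fbn1 or Fbn2, which were therefore not analysed here. At least 1 probe of 6 genes (13 probes in all) passed the detection filter, and these 6 genes were tested.

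The tissues were the meniscus (the fibrous pad inside the joint), the articular cartilage that covers the bone ends, and the cruciate ligaments. All were hindlimb tissues of CD-1 mice, an outbred stock, taken at embryonic day 16, and no treatment or genetic alteration is given in the labels. Each tissue was measured on 3 Illumina bead arrays. Separate animals or pools are not stated for the replicates of a tissue, so p-values reflect how far these samples vary among themselves, and that variation may be technical.

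Elastic fibres let a tissue recoil after stretch. A core of cross-linked elastin, the product of Eln, is laid down on a scaffold of microfibrils built from fibrillins, the products of Fbn1 and Fbn2. Microfibrils also occur without elastin in tissues under tension, and they hold growth factors of the TGF-beta and BMP families. Fibulins and EMILIN-1 lie at the contact between elastin and microfibrils, and lysyl oxidases cross-link the elastin.

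Levels are normalized log2 intensities, and a probe counted as above background on an array when its detection p was below 0.01. Detection differed by tissue. The share of probes above background was 28.9% to 31.9% in meniscus, 29.4% to 35.6% in cartilage and 18.0% to 20.9% in ligament. Median scanner signals were 93.4 to 101.2, 99.5 to 103.8 and 147.4 to 209.7 in that order. The ligament arrays had also been normalized apart from the other 6 by the authors, so that array set and tissue cannot be told apart in any difference from ligament. On the log2 scale, the median named gene stood 0.27 higher in meniscus than in ligament, and its difference for ligament minus cartilage was -0.23. Differences from ligament are therefore also given relative to that median gene. Ligament arrays also varied more among themselves. The median SD of named genes was 0.50 in ligament, 0.25 in meniscus and 0.26 in cartilage. Each SE pools the spread of all 3 tissues, so ligament arrays also enter the intervals and p-values between meniscus and cartilage. Tissue markers were checked against the labels. The mean level of 11 tested hyaline cartilage genes was 9.92 to 10.56 in cartilage, 7.39 to 8.15 in meniscus and 7.01 to 8.48 in ligament, where replicate 3 was highest at 8.48 and the other replicates stood at 7.25 and 7.01. The mean level of 8 tested tendon and ligament genes (of 10 listed) was 9.38 to 9.48 in ligament, 8.98 to 9.31 in meniscus and 8.55 to 8.94 in cartilage, with no overlap. Of these 8 genes, 5 were called higher (Mkx, Col1a1, Thbs4, Fmod and Kera) and 1 lower (Egr1, at -2.14) in ligament than in cartilage. Between ligament and meniscus, 3 were called higher in ligament (Mkx, Col1a1 and Fmod) and 2 lower (Tnc and Egr1). Of the same list's defining genes, Scx was above background on 1 ligament array and Tnmd on 0 of all 9 arrays.

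Mfap4 had the clearest pattern of the tested genes. It encodes microfibril-associated protein 4, a fibrinogen-related glycoprotein that binds fibrillin and elastin. Its level was 9.09, 9.40 and 9.40 in ligament, 7.66, 7.38 and 7.53 in meniscus and 6.32, 6.40 and 5.97 in cartilage. Ligament was highest and cartilage lowest, and the arrays of no 2 tissues overlapped, which held for 4.95% of the 7234 named genes tested. The same order was visible in the scanner signal before normalization, which was 715.9, 904.5 and 1024.6 in ligament, 227.2, 230.7 and 221.5 in meniscus and 150.2, 182.3 and 154.2 in cartilage. That order is not separate support for the place of ligament. Median scanner signals of all probes were also highest on ligament arrays, at 147.4 to 209.7 against 93.4 to 103.8 on the others. The probe was above background on all 9 arrays.

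Between ligament and cartilage, Mfap4 rose by 3.07 ± 0.21 in ligament (SE on the log2 scale, n = 3 per tissue), which was 3.30, or 9.86-fold, relative to the median gene (limma, Benjamini-Hochberg adjusted p = 0.000325). Of all named genes, 1 had a smaller p in this contrast and 4 rose by more. In meniscus Mfap4 was 1.77 ± 0.21 below ligament, a 4.11-fold difference relative to the median gene (limma adjusted p = 0.00234). Relative to cartilage Mfap4 rose in meniscus by 1.30 ± 0.21, or 2.45-fold (limma adjusted p = 0.0314). On the log2 scale, meniscus thus stood at 0.422 of the way from cartilage to ligament. Both differences from ligament passed the test under each of 21 alternative settings. The rise of meniscus over cartilage was lost when any 1 of the 6 meniscus or cartilage arrays was left out, with differences of 1.17 to 1.38 and adjusted p between 0.108 and 0.135. Calls over all named genes fell in those fits as well, from 55 to between 0 and 13. The rise was also lost with median scaling (1.06, adjusted p = 0.0571). It passed with those 6 arrays normalized alone (1.29, adjusted p = 0.0168), an alternative added after the data were seen.

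**Figure D1:**
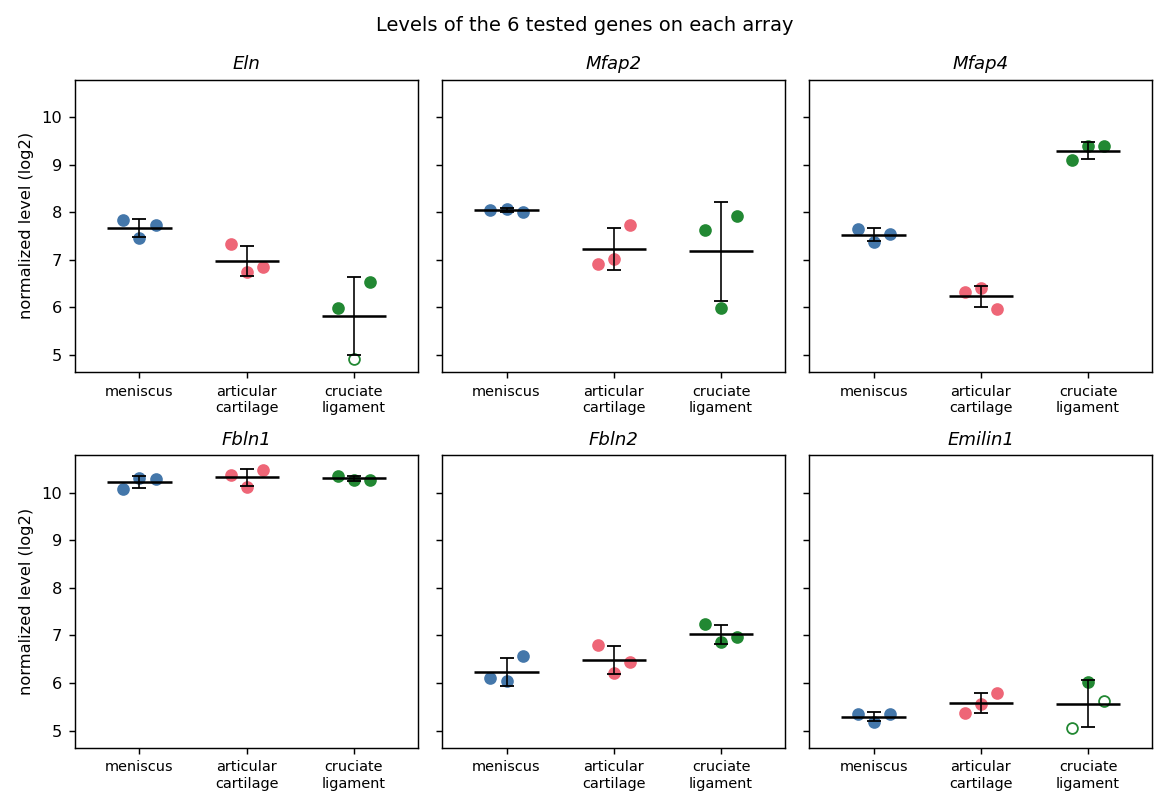
Normalized level (log2 intensity) of the 6 tested genes on each of the 9 arrays, by tissue. Points are single arrays, open where the probe was not above background, and lines with bars are the mean ± SD of 3 arrays. Mfap4 separates all 3 tissues, with ligament between 9.09 and 9.40. Eln is lowest in ligament, and Fbln1 stays between 10.09 and 10.47.

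RNA of whole tissue cannot tell fewer cells of a type from less RNA per cell. Marker levels of other cell types moved with Mfap4 in part. The mean of 6 tested smooth muscle and pericyte genes (of 10 listed) was 7.02 to 7.51 in cartilage, 7.90 to 8.06 in meniscus and 7.78 to 8.29 in ligament. Of these 6 genes, 3 were called higher in ligament than in cartilage and 0 lower, namely Rgs5 at 2.83, Myl9 at 2.00 and Mcam at 1.56 (limma adjusted p = 0.00549, 0.0084 and 0.00379). Des and Cspg4 went the other way in that contrast, at -1.08 and -0.48, and were not called (limma adjusted p = 0.328 and 0.296). Cspg4 was called lower in meniscus than in cartilage, at -1.89 (limma adjusted p = 0.028). Among the list's other genes, Tagln and Pdgfrb were not above background on any array, and Acta2 lay between 7.84 and 8.42 with the 3 tissues overlapping. Cnn1 and Myh11, not tested, were above background on 2 and 1 cartilage arrays and on 0 arrays of the other tissues. The mean of 3 tested erythroid genes (of 7 listed) was 5.63 to 6.38 in cartilage, 6.71 to 7.18 in meniscus and 6.93 to 8.39 in ligament. The mean of the tested tendon and ligament genes also stood in the order of Mfap4, but its single genes did not all do so. Tnc and Egr1 were called higher in meniscus than in ligament, at 0.95 and 1.91 (limma adjusted p = 0.021 and 0.004). The mean of 7 tested endothelial genes (of 12 listed) was 4.77 to 4.89 in cartilage, 5.6 to 6.59 in meniscus and 5.10 to 6.22 in ligament, and that of 4 fibroblast genes (of 6 listed) was 9.53 to 10.12, 10.77 to 10.91 and 10.12 to 10.71. The 5 tested macrophage and osteoclast genes (of 14 listed) averaged 5.05 to 5.49, 6.51 to 7.89 and 5.54 to 7.84. The haemoglobin gene Hba-a1 had the centred profile nearest to that of Mfap4 among all other named genes, with a root mean square difference of 0.44 (log2) over the 9 arrays, followed by Dleu2 at 0.47. The median named gene lay at 1.44. Hba-a1 averaged 10.20 in ligament, 8.57 in meniscus and 7.84 in cartilage. The other tested erythroid genes, Hbb-y and Alas2, were not called in any contrast. Mean levels of Hbb-y stood in the order of Mfap4, at 1.61 for ligament minus cartilage (limma adjusted p = 0.0699). Its differences were 1.30 for meniscus minus cartilage and -0.31 for meniscus minus ligament. Alas2 averaged 0.64 higher in ligament than in cartilage and 0.36 higher in meniscus than in ligament. Slc4a1, of the same list, was above background on 2 meniscus arrays and 0 ligament arrays. The part of these cell types in the result was not tested.

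Eln, the gene of elastin itself, took another order, with meniscus highest and ligament lowest. The brighter of its probes stood at 7.83, 7.45 and 7.72 in meniscus, 7.34, 6.75 and 6.85 in cartilage and 5.99, 4.92 and 6.53 in ligament. No 2 tissues overlapped, and ligament replicate 2 was not above background. Eln was higher in meniscus than in ligament by 1.86 ± 0.38 (log2, SE), which was 1.59, or 3.01-fold, relative to the median gene (limma adjusted p = 0.016). Ligament lay 1.17 ± 0.38 below cartilage (limma adjusted p = 0.0678) and meniscus 0.69 ± 0.38 above it (adjusted p = 0.575), and neither passed the test.

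The call between meniscus and ligament was lost without meniscus replicate 1, 2 or 3 (adjusted p = 0.0615, 0.0513 and 0.0605, with differences of 1.78, 1.96 and 1.83). Calls over all named genes fell in those fits as well, from 864 to 363, 278 and 324. The Eln call was also lost when only those 2 tissues entered the fit (adjusted p = 0.0534). Without ligament replicate 3, the difference between ligament and cartilage reached -1.55 and passed (limma adjusted p = 0.0207). Calls over all named genes in this contrast rose in that fit as well, from 1098 to 1343. The difference also passed after median scaling at -1.82 (limma adjusted p = 0.00116), where the median named gene itself fell by 0.92. Ligament replicate 3 had the highest hyaline cartilage marker mean of the ligament arrays (8.48) and the Eln level nearest to cartilage, and the part of cartilage cells in the result was not tested. The second probe of Eln ran the same way in every contrast, with differences of 0.54 from cartilage to meniscus and 1.12 from ligament to meniscus, and neither was called (limma adjusted p over all probes = 0.8 and 0.169). It was above background on 1 of 3 ligament arrays, and its ligament levels of 4.94, 4.51 and 6.59 overlapped both other tissues. The named genes whose centred profile lay nearest to Eln were Ppp4r1 and Slc25a14, with root mean square differences of 0.29 and 0.30 over the 9 arrays against 0.91 for the median gene.

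Mfap2 encodes MAGP-1, a small glycoprotein bound along the microfibril. Its brightest probe was nearly constant in meniscus, at 8.06 and 8.07 on replicates 1 and 2 and 8.0 on replicate 3, and lower in cartilage, at 6.92, 7.02 and 7.73. In ligament it stood at 7.63, 5.99 and 7.92, so that replicate 2 lay far below the other two. Meniscus lay above both neighbours on every array, and the arrays did not overlap in either contrast. Neither difference passed the test. It was 0.82 ± 0.46 (log2, SE) against cartilage, with a 95% interval from -0.22 to 1.86, and 0.86 ± 0.46 against ligament, with an interval from -0.18 to 1.90 (limma adjusted p = 0.582 and 0.247). Both intervals use the pooled spread, and the SD of this probe was 1.04 in ligament, 0.44 in cartilage and 0.04 in meniscus. Against ligament the difference passed after median scaling (1.38, adjusted p = 0.0325), where the median gene differed by 0.70.

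The other 2 probes of Mfap2 were also higher in meniscus than in cartilage, by 0.60 and 0.47. Against ligament they parted, at -0.40 and 0.40. Between ligament and cartilage the 3 probes gave -0.04, 1.00 and 0.07, and the second of these had an unadjusted p of 0.0175 (limma adjusted p over all probes = 0.0826). Without ligament replicate 2, the brightest probe differed by 0.56 between these tissues (adjusted p = 0.202).

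Mfap5 encodes MAGP-2, the close relative of MAGP-1. Its single probe was not above background on any of the 9 arrays, with levels from 4.34 to 5.69. The highest value was on ligament replicate 1, where the detection p was 0.0139. Fbln5 encodes fibulin-5, which tethers elastin to microfibrils and to integrins on the cell surface. Its single probe was also below background on all 9 arrays, with levels from 4.30 to 4.70. No fold is given for either gene.

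Fbln1 encodes fibulin-1, a calcium-binding glycoprotein of elastic fibres and basement membranes. By the probe used, it had the most even level of the tested genes. Its brightest probe stood at 10.09, 10.31 and 10.30 in meniscus, 10.38, 10.12 and 10.47 in cartilage and 10.36, 10.27 and 10.28 in ligament. All 3 tissues overlapped. The differences were -0.10 between meniscus and cartilage (95% interval -0.53 to 0.34), -0.07 between meniscus and ligament (-0.50 to 0.36) and -0.02 between ligament and cartilage (-0.46 to 0.41). The lowest limma adjusted p among these contrasts was 0.837. These intervals leave out changes above 0.53 on the log2 scale in this probe under this normalization. With each array scaled to its median instead, ligament lay 1.06 below cartilage (limma adjusted p = 0.0108), where the median named gene itself fell by 0.92.

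The other kept probes of Fbln1 did not all follow. A probe designed on another transcript record stood at 6.66, 7.73 and 7.17 in ligament and at 6.12, 5.97 and 6.86 in cartilage, a difference of 0.87 (unadjusted p = 0.0267, limma adjusted p over all probes = 0.108). The remaining 2 kept probes differed by 0.44 and 0.12 in that contrast. For meniscus minus cartilage, the probe on the other record gave 0.23 and these 2 gave 0.39 and 0.28. The probe used gave -0.10 there, and none of these was called. The last probe of Fbln1 was above background on 2 of 9 arrays and was not tested.

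Fbln2 encodes fibulin-2, which binds fibrillin-1 and accompanies elastic fibres in embryonic connective tissue. The probe used stood at 7.24, 6.85 and 6.97 in ligament, 6.11, 6.04 and 6.57 in meniscus and 6.80, 6.22 and 6.44 in cartilage. Ligament lay above both other tissues on every array. It was 0.79 ± 0.25 (log2, SE) above meniscus, or 1.05 relative to the median gene, and 0.54 ± 0.25 above cartilage, or 0.77 relative to the median gene. Neither passed the test (limma adjusted p = 0.065 and 0.163). The difference from meniscus passed after cyclic loess normalization (-0.98 for meniscus minus ligament, adjusted p = 0.0476) and among genes detected on all 9 arrays (adjusted p = 0.0392).

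The second kept probe of Fbln2, annotated to the same transcript record, ran the opposite way. It stood at 6.48, 4.80 and 4.57 in ligament, 6.12, 6.49 and 7.01 in meniscus and 7.42, 6.57 and 6.74 in cartilage, and was above background on only 1 ligament array. Ligament lay 1.63 below cartilage by this probe (limma adjusted p over all probes = 0.0542), against 0.54 above it by the other. Meniscus lay 1.25 above ligament by this probe and 0.79 below it by the other. Both probes placed meniscus slightly below cartilage, at -0.37 and -0.25. In meniscus and cartilage the second probe was the brighter, with means of 6.54 and 6.91 against 6.24 and 6.49. The probe used had the higher mean over all 9 arrays only through ligament, at 7.02 against 5.29. The third probe of Fbln2 was below background on all 9 arrays.

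**Figure D2:**
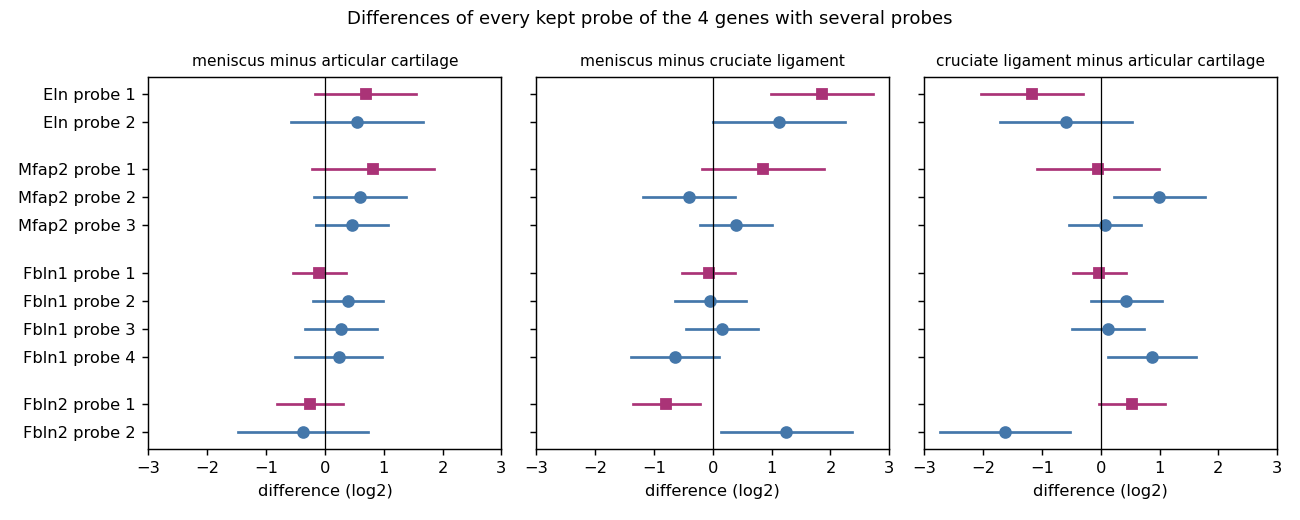
Difference between tissues (log2, fitted value with 95% interval from limma) for every kept probe of Eln, Mfap2, Fbln1 and Fbln2, with 1 panel per contrast and probes numbered by mean level. Squares mark the probe used for the gene. Probes of Eln agree in sign in every panel, whereas those of Fbln2 lie on opposite sides of 0 in both contrasts with ligament, at -1.63 and 0.54 for ligament minus cartilage.

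Emilin1 encodes EMILIN-1, an elastin microfibril interface protein known for restraining TGF-beta. Its levels were low, at 5.35, 5.18 and 5.34 in meniscus, 5.38, 5.55 and 5.79 in cartilage and 5.05, 6.03 and 5.63 in ligament. Cartilage lay above meniscus on every array by a small margin, and ligament, above background on 1 of 3 arrays, overlapped both. The differences were -0.28 between meniscus and cartilage (95% interval -0.89 to 0.32), -0.28 between meniscus and ligament (-0.88 to 0.33) and -0.01 between ligament and cartilage (-0.61 to 0.60). None was called (lowest limma adjusted p = 0.533).

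Among the 6 tested genes together, limma called Mfap4 alone between meniscus and cartilage, 1 gene higher and 0 lower in meniscus. The background among the 7234 named genes was 0.76%, of which 0.415% were higher and 0.346% lower in meniscus. Against ligament, 1 gene (Eln) was called higher in meniscus and 1 (Mfap4) lower, beside a background of 11.9%, with 9.32% higher and 2.63% lower. Between ligament and cartilage, 1 gene (Mfap4) was called higher in ligament and 0 lower, beside a background of 15.2%, with 3.84% higher and 11.3% lower. The F test over the 3 tissues called Mfap4 and Eln (limma adjusted p = 0.000905 and 0.0277), against 14.7% of named genes. Arrays did not overlap for 4 of the 6 genes between meniscus and cartilage (26% of named genes), 4 between meniscus and ligament (31.6%) and 3 between ligament and cartilage (33.6%). The median difference of the 6 genes was 0.30, -0.17 and -0.02 in these contrasts, beside 0.03, 0.27 and -0.23 for all named genes. The genes differed among themselves: in ligament against cartilage, fitted differences ran from -1.17 for Eln to 3.07 for Mfap4. The comparisons share arrays and are not independent of each other.

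**Figure D3:**
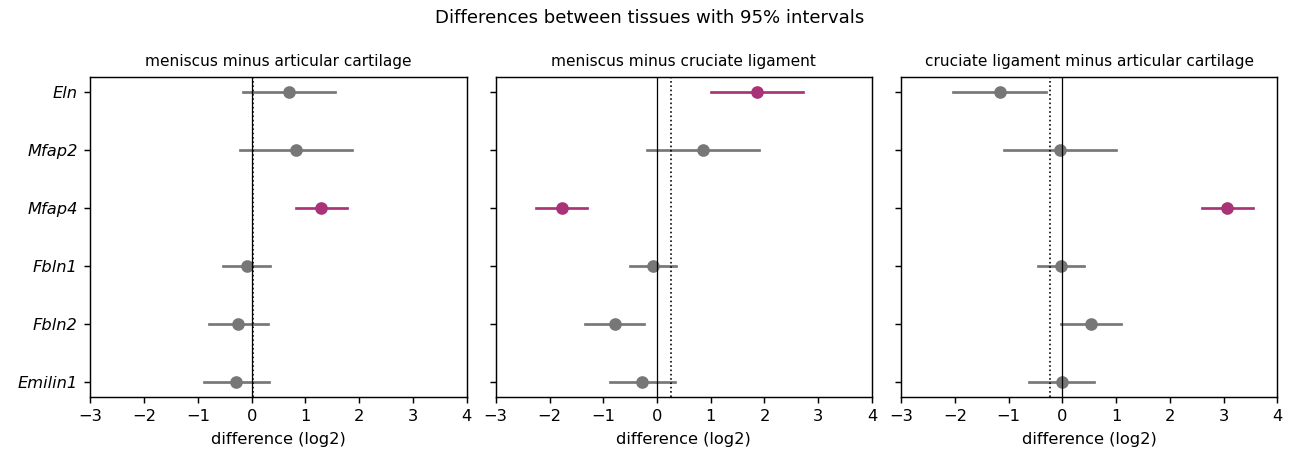
Fitted difference (log2) with its 95% interval for the 6 tested genes in each contrast. Purple marks genes called by limma at an adjusted p under 0.05, and the dotted line is the median named gene. Mfap4 is called in all 3 panels, at 1.30, -1.77 and 3.07, and Eln in the middle panel at 1.86.

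Other genes of elastic fibre assembly were taken from 9 lists with 65 genes, of which 60 had a named probe and 37 were tested. Meniscus was called higher than cartilage for 2 genes and lower for 0 (5.41% of the 37, beside 0.76% of named genes), and higher than ligament for 8 and lower for 0 (21.6%, beside 11.9%). Ligament was called higher than cartilage for 4 and lower for 4 (10.8% each, beside 3.84% and 11.3%). The median difference of the 37 genes was 0.25, 0.17 and -0.06 in these contrasts, beside 0.03, 0.27 and -0.23 for all named genes. The lists were chosen with earlier results of these data known, so the shares called describe the lists and do not test them. The 12 genes called are described by role.

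Cross-linking enzymes came first, with 4 of 6 tested. Lox, the lysyl oxidase that cross-links elastin and collagen, stood at 10.18, 9.85 and 9.91 in meniscus, 9.44, 10.21 and 9.79 in ligament and 6.79, 6.50 and 8.36 in cartilage. Meniscus and ligament overlapped and both lay above cartilage. Meniscus exceeded cartilage by 2.76 ± 0.45 and ligament did so by 2.59 ± 0.45, or 2.83 relative to the median gene (limma adjusted p = 0.0314 and 0.00703). The first was lost without any 1 meniscus array or without cartilage replicate 1 or 2, with a highest adjusted p of 0.148, and with no detection filter (adjusted p = 0.0937). It passed in 16 of 23 alternatives. The fibroblast and endothelial marker means given with Mfap4 were likewise lowest in cartilage, and their part in the Lox result was not tested. Loxl1, the family member tied to elastic fibres, followed the order of Eln, with means of 7.03 ± 0.10 (SD, n = 3) in meniscus, 5.80 ± 0.28 in cartilage and 5.26 ± 0.85 in ligament. It was higher in meniscus than in ligament by 1.77 ± 0.38, or 1.5 relative to the median gene (limma adjusted p = 0.0192), a call lost without meniscus replicate 1, 2 or 3 (highest adjusted p = 0.0725). In ligament it was above background on 1 of 3 arrays. Tgm2, a transglutaminase, was called higher in meniscus than in ligament, where its probe was not above background, at least 1.10-fold relative to the median gene (limma adjusted p = 0.0319). That call was lost in 6 of the 9 fits that left out an array.

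Of the latent TGF-beta binding proteins, which dock on fibrillin, 3 of 4 were tested. Ltbp1 averaged 9.27 ± 0.24 in meniscus, 8.81 ± 0.59 in cartilage and 8.13 ± 0.15 in ligament, and was higher in meniscus than in ligament by 1.15 ± 0.30, or 0.88 relative to the median gene (limma adjusted p = 0.0389). That call was lost in 6 of the 9 fits that left out an array (highest adjusted p over all alternatives 0.154). Its 3 other kept probes had the same sign but were not called, at 1.16, 0.99 and 0.39. Ltbp3 and Ltbp4 were not called in any contrast. Among the TGF-beta and BMP ligands, Tgfb3 was higher in ligament than in cartilage by 1.04 ± 0.31, or 1.27 relative to the median gene (limma adjusted p = 0.0487), which passed in 4 of 20 alternatives. Gdf5, a signal of the forming joint, averaged 6.97 ± 0.60 in meniscus and 6.59 ± 0.85 in cartilage, and its probe stayed below background on the ligament arrays. It was at least 1.76-fold higher in meniscus and at least 1.38-fold higher in cartilage than in ligament, relative to the median gene (limma adjusted p = 0.00832 and 0.0123). The second of these calls was lost without cartilage replicate 2 (adjusted p = 0.0522).

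Of the microfibril-associated ADAMTS-like proteins, Adamtsl4, a fibrillin-1 binding protein, averaged 6.30 ± 0.21 in meniscus and 6.48 ± 0.45 in cartilage, with ligament below background on each array. It was at least 1.10-fold higher in meniscus and at least 1.28-fold higher in cartilage than in ligament, relative to the median gene (limma adjusted p = 0.0061 and 0.00338). Both calls passed under each of 20 alternatives. Adamts17, Adamtsl3 and Thsd4 were tested and not called. The relatives of fibulins and EMILINs with a tested probe, Emilin3 and Mmrn1, were not called either, nor were Mfap1a, Mfap1b, Mfap3 and Mfap3l, which share the microfibril name.

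Among matrix partners of microfibrils, the large proteoglycan versican, encoded by Vcan, stood at 10.79, 10.32 and 10.47 in meniscus, 10.12, 10.23 and 10.09 in ligament and 9.32, 8.93 and 9.24 in cartilage. No 2 tissues overlapped. It was higher than in cartilage by 1.36 ± 0.21 in meniscus and by 0.98 ± 0.21 in ligament, the latter 1.22 relative to the median gene (limma adjusted p = 0.0281 and 0.0166). The first was lost without any 1 meniscus or cartilage array (highest adjusted p = 0.137) and with median scaling (1.19, adjusted p = 0.0569). The second was lost without cartilage replicate 2 or 3, and it turned to -0.05 when arrays were scaled to their medians, where the median gene fell by 0.92. Of the 3 other kept probes of Vcan, all higher in both tissues than in cartilage, 1 was called in meniscus and 2 in ligament. Col6a1, a chain of the beaded-filament collagen VI, averaged 9.31 ± 0.11 in meniscus, 9.36 ± 0.21 in cartilage and 7.99 ± 0.25 in ligament. It was 1.32 ± 0.22 higher in meniscus than in ligament, or 1.05 relative to the median gene, and ligament minus cartilage was -1.37 ± 0.22, or -1.14 (limma adjusted p = 0.00772 and 0.00508). Both calls of this probe passed under each of 21 alternatives. Another kept probe was called in both contrasts, at 2.07 and -2.32 (limma adjusted p over all probes = 0.0144 and 0.00746). The third had the same signs but was not called, at 0.52 and -0.69 (adjusted p = 0.417 and 0.262). Col6a2, another collagen VI chain, was not called in any contrast and did not share this order. It averaged 9.38 ± 0.17 in ligament, 9.13 ± 0.96 in meniscus and 8.77 ± 0.28 in cartilage. Its ligament minus cartilage difference was 0.61 (limma adjusted p = 0.354).

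Of the receptors, Itga9, an integrin chain, was highest in cartilage at 9.43 ± 0.05, with 8.70 ± 0.18 in meniscus and 7.75 ± 0.51 in ligament. Ligament minus cartilage was -1.68 ± 0.27, or -1.45 relative to the median gene, and meniscus minus ligament 0.95 ± 0.27, or 0.69 (limma adjusted p = 0.00524 and 0.0484). The call against meniscus passed in 7 of 21 alternatives, and a second kept probe was called against cartilage (-1.44) but not against meniscus (0.53). Among proteases, Mmp14, a membrane-bound matrix metalloprotease, averaged 8.95 ± 0.07 in ligament, 8.65 ± 0.13 in meniscus and 8.20 ± 0.12 in cartilage. It was 0.74 ± 0.19 higher in ligament than in cartilage, or 0.98 relative to the median gene (limma adjusted p = 0.0291). That call passed in 12 of 21 alternatives and in 4 of the 9 fits that left out an array, and the difference was -0.21 after median scaling. Ctsl, a lysosomal cathepsin, was called higher in meniscus than in ligament, where it was not above background, at least 1.35-fold relative to the median gene (limma adjusted p = 0.0174), and the call was lost without meniscus replicate 2 or 3.

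**Figure D4:**
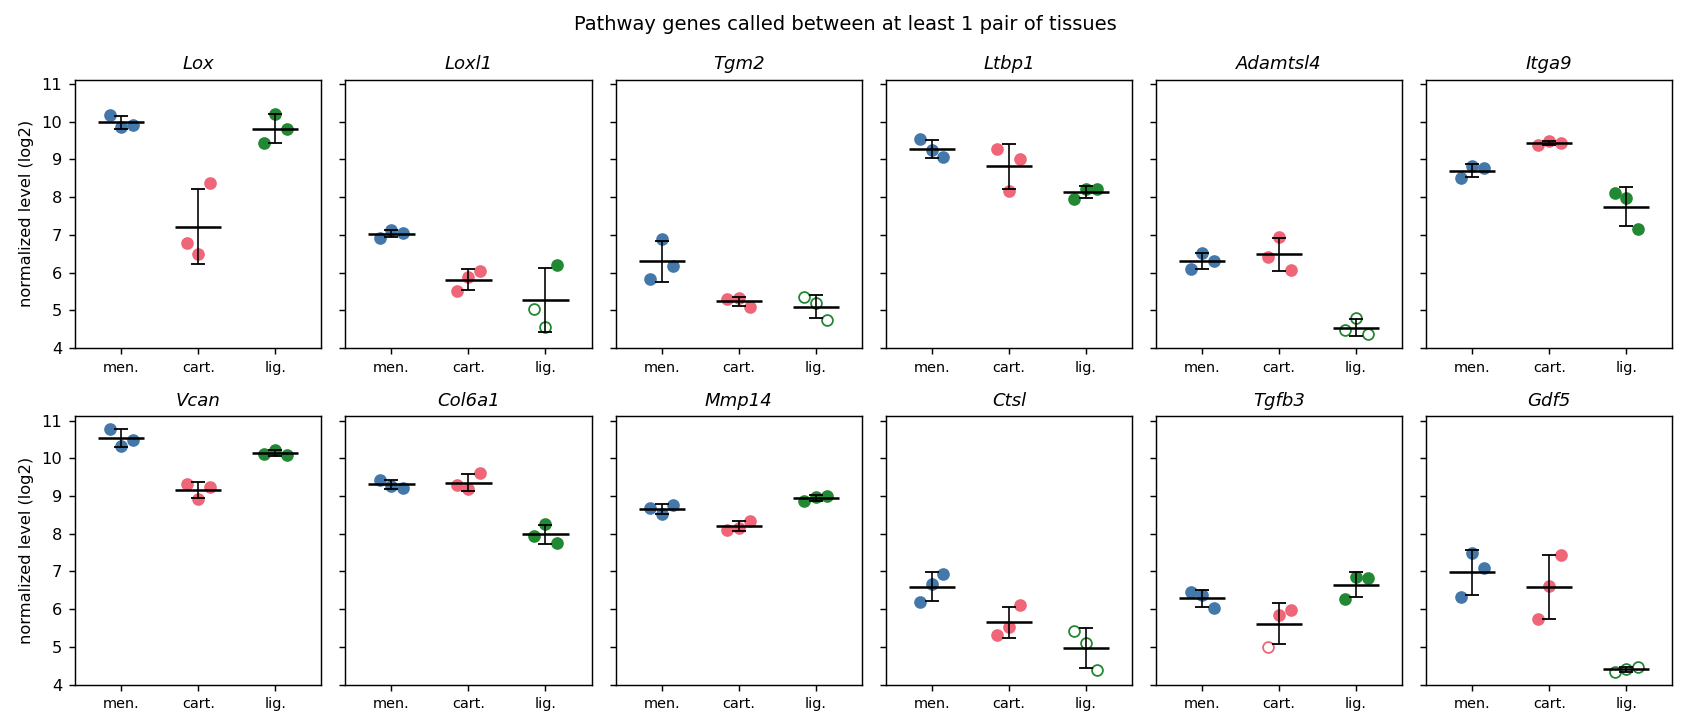
Normalized level (log2 intensity) on each array for the 12 genes of the assembly lists called between at least 1 pair of tissues (men., meniscus; cart., articular cartilage; lig., cruciate ligament). Points are single arrays, open where the probe was not above background, with the mean ± SD of 3 arrays. Lox and Vcan are lowest in cartilage, and Adamtsl4, Gdf5 and Col6a1 are lowest in ligament.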

How the data were processed

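The authors deposited a table of scanner intensity per probe with a detection p-value, per the file headers, and a value table of their processed intensity. Per the submitters' processing notes the software was GenomeStudio, whose version is not stated there. Scanner rows were matched to the value table by ranks on the 9 arrays (45281 of 45281 rows found a partner), and probes were named through the platform annotation. Intensities were background-corrected from the detection p-values (neqc, offset 16), quantile normalized and tested on the log2 scale with limma 3.58.1 in R 4.3.3. Probes detected at p under 0.01 on all 3 arrays of at least 1 tissue were tested, and the brightest kept probe stood for a gene, giving 9166 features. Group means were fitted over all 9 arrays, with Benjamini-Hochberg adjustment over all features, and calls were made at an adjusted p under 0.05. The fit was also run on simulated data that gave every tissue the same SD, so it was not tested for the wider spread of ligament arrays. Precision is limited by the number of arrays.

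A probe below background on all arrays of a tissue gives only a bound, the bright tissue's mean against the higher of the lowest detected signal and the probe's own level on each array. All 10 genes are named. Of the 9 assembly lists, every gene called in any contrast is named with its values, and the genes nearest to Eln and Mfap4 by root mean square difference are given. Genes and lists were chosen with earlier results of these data known. Alternatives covered background correction, normalization, detection filter, probe choice, samples in the fit, array weights, the replicate block, the authors' values and leaving out each array.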

Additional observations from a re-analysis of the deposited data

How the results depend on the processing

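Counts of called genes among the 6 tested were 1 between meniscus and cartilage, 2 between meniscus and ligament, 1 between ligament and cartilage and 2 by the F test. They fell to 0 between meniscus and cartilage with the replicate block, where Mfap4 had an adjusted p of 0.0968, and with median scaling, which also gave 3 between ligament and cartilage. Between meniscus and ligament 1 was called with only those 2 tissues in the fit. That count rose to 3 with cyclic loess normalization, which added Fbln2, and with median scaling, which added Mfap2. The F test called 1 among genes detected on all 9 arrays, with no detection filter and with the mean of all kept probes, and 3 with median scaling. Leaving out 1 array gave 0 to 1 calls between meniscus and cartilage, 1 to 2 between meniscus and ligament, 1 to 2 between ligament and cartilage and 1 to 2 by the F test. Over all named genes, calls between meniscus and cartilage numbered 0 to 13 without a meniscus or cartilage array and 57 to 123 without a ligament array, against 55 with all arrays. Between meniscus and ligament they numbered 278 to 363 without a meniscus array, 546 to 703 without a cartilage array and 980 to 1203 without a ligament array, against 864. The block changed no other count. Deviations of same-numbered arrays from their tissue means correlated at -0.03 to 0.15, so the numbers do not show a pairing.

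Mfap4 and Eln kept their direction in every contrast and setting run. Sign changes touched values that were not called, except Vcan and Mmp14 between ligament and cartilage, at -0.046 and -0.21 under median scaling. Between ligament and cartilage, Mfap2 turned to 0.0008 (offset 50), 0.024 (no background correction), 0.12 (cyclic loess) and 0.34 (mean of probes), Emilin1 to 0.0067 (offset 50), 0.004 (no background correction), 0.31 (cyclic loess) and 0.032 (array weights), Fbln1 to 0.04 (cyclic loess), 0.35 (mean of probes) and 0.0052 (array weights), and Fbln2 to -0.20 (median scaling) and -0.54 (mean of probes). Fbln1 turned to 0.20 between meniscus and cartilage (mean of probes) and to 0.77 between meniscus and ligament (median scaling), and Fbln2 to 0.23 there (mean of probes). Leaving out an array gave -0.41 to 0.56 for Mfap2, -0.13 to 0.0485 for Fbln1 and -0.24 to 0.25 for Emilin1 between ligament and cartilage. The causes were not tested. The low share of probes above background on the ligament arrays limits what can be said of dim probes there.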
